A study of Mus musculus with 72 samples.

Results

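The transcriptome of the heart ventricles was compared between 6 Gnb5-/- mice (KO) and 6 Gnb5+/+ mice (WT), 12 of the 72 libraries of the study. The 12 libraries were taken by the genotype and tissue in their sample titles. Each library held RNA of the whole left and right ventricles of 1 male mouse killed at 18 weeks of age. The KO mice carried a germline deletion of exon 3 of Gnb5 on both alleles on a C57BL/6J background, in a line re-established from frozen sperm, so every tissue lacked the exon from conception and the ventricles of the KO mice developed without it. Ventricles of 6 Gnb5+/- mice (HET) were in the same model fit and are quoted beside KO and WT values, and the atria of the same KO and WT mice served for comparison. The labels name no treatment for any of these mice. Levels are counts scaled to library size (CPM, with TMM factors), a difference is KO minus WT on the log2 scale with its standard error (SE), and a gene is called where edgeR's quasi-likelihood test gave a Benjamini-Hochberg adjusted p below 0.05 over the 14866 genes tested.

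Gnb5 encodes Gβ5, a G-protein β subunit that, unlike the other Gβ proteins, pairs with the R7 family of regulators of G-protein signalling (RGS6, RGS7, RGS9 and RGS11). The paired complex speeds up GTP hydrolysis on Gαi and Gαo and so shortens signals from receptors such as the M2 muscarinic receptor. In the heart the vagus nerve acts through that receptor to open GIRK potassium channels and to lower cyclic AMP, which slows the pacemaker and conduction. R7-RGS proteins are unstable without Gβ5, and this control works on protein rather than on transcript. The comparison asks which ventricular transcripts accompany the loss.

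Reads were counted per gene, and Gnb5 lies at chr9:75306288-75345876 on the plus strand of GRCm38. The sources used here do not say in which transcript exon 3 was numbered, and the 2 candidates are printed because they differ in what a deletion would remove. Exon 3 of the transcript of 13 exons is exon 2 of that of 12 exons (chr9:75314272-75314383). It is coding over its 112 bases, which leaves a remainder of 1 after division by 3. Exon 3 of the transcript of 12 exons (chr9:75327133-75327269) is coding over 137 bases, with a remainder of 2.
Exon 3 of the longer transcript: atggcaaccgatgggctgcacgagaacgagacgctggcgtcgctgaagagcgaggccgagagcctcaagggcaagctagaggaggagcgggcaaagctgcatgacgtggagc
Exon 3 of the shorter transcript: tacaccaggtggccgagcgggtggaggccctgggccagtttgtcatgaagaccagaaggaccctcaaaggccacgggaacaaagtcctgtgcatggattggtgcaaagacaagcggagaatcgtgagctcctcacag

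Gnb5 itself ranged from 0.532 to 1.41 CPM in KO (median 0.920), from 8.29 to 11.6 in HET (median 9.04) and from 16.9 to 21.02 in WT (median 18.1). The 3 genotypes did not overlap. The difference was −4.26 (SE 0.17, adjusted p 9.72e-13 by edgeR). The Gnb5 level matched the label in each of the 18 libraries, and the call held under every alternative run, with differences between −4.42 and −4.15 when 1 KO or WT library at a time was left out.

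Reads on genes ranged from 31264428 to 37956952 in KO and from 30277796 to 36005977 in WT (exact permutation test, two-sided, p 0.184). KO replicate 3 and WT replicate 6 had the smallest share of mitochondrial reads, 26.5% and 28.1%, against medians of 38.0% and 39.7%, and the largest share of reads outside genes, 5.71% and 5.52%. HET replicate 4 lay beyond Dixon's limit of its group at 19.9% of genes, and the other 17 libraries at 0.316% to 3.48%. Without HET replicate 4, which enters this contrast only through the filter, the scaling and the shared estimate of spread, 42 genes were called in place of 28, and the 28 were among them. Without KO replicate 3 and WT replicate 6 there were 24, of which 20 were among the 28. Leaving out WT replicate 1 gave 41, and leaving out WT replicate 5 gave 17. Of the 28 genes, 16 were called in every fit without 1 KO or WT library, and 12 lost the call in at least 1 of them: Gm28231, Tbx18, Scgb1c1, Sh3bgrl2, Guca1b, Ppm1m, Mrpl3, Ctsh, Gm31520, Slc38a3, Ephb1 and Drd2.

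With edgeR, 28 of the 14866 genes were called (0.188%), 14 higher (0.0942%) and 14 lower (0.0942%) in KO. DESeq2's Wald test called 63 (0.424%), the 28 included. Without adjustment, 711 genes (4.78%) had a p below 0.05, 370 of them higher (2.49%) and 341 lower (2.29%). Of all estimates, 48.1% were positive. The ranges of the 6 KO and 6 WT libraries did not overlap for 25 of the 28 called genes and for 80 of all genes (0.538%). Such separation of a single gene has a two-sided exact permutation p of 0.00216, without adjustment for the number of genes. The split by chromosome was uneven. Chromosome 9, which carries Gnb5, held 20 of the 28 calls among its 842 genes tested (2.38%). The other chromosomes held 8 among 14024 (0.057%). At an unadjusted p below 0.05 the share was 13.2% on chromosome 9 and between 2.62% and 5.89% on each other chromosome with over 100 genes tested.

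**Figure D1:**
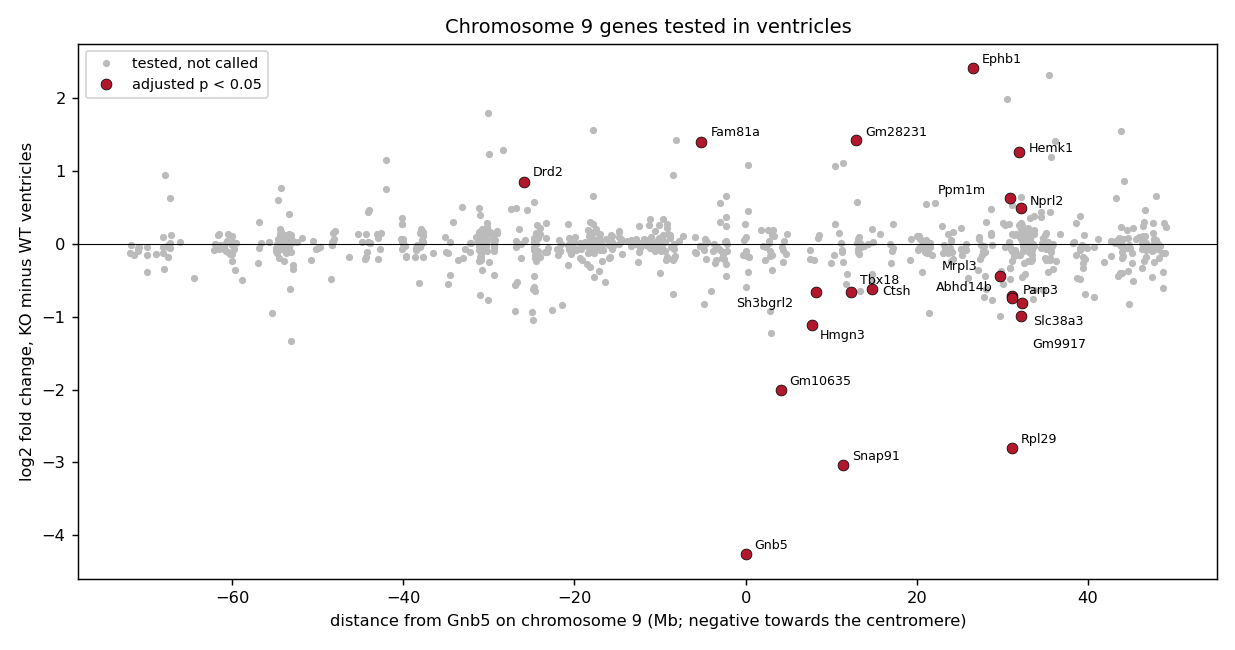
Log2 fold change (KO minus WT ventricles) of each of the 842 chromosome 9 genes tested against its distance from Gnb5 in Mb, with negative distances towards the centromere; red points are the 20 called genes. The called genes other than Gnb5 lie on the distal side, 17 of 19, and go both ways.

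Beside Gnb5, 19 chromosome 9 genes were called, 7 higher and 12 lower in KO, over a stretch of 58.3 Mb. Of these, 17 lay on the distal side of Gnb5 and 2, Fam81a and Drd2, on the side of the centromere. They were not spread evenly along it. On the distal side, 2 of 31 genes were called within 5 Mb, Gnb5 included, 2 of 8 between 5 and 10 Mb and 4 of 32 between 10 and 15 Mb. Between 15 and 25 Mb there were 0 of 42, and between 25 and 40 Mb 10 of 171. Beyond 40 Mb on that side 0 of 79 genes were called. Both directions occurred among neighbours: in the stretch from 25 to 40 Mb, 4 genes were higher and 6 were lower. On the centromere side 0 of 32 genes were called within 5 Mb and 1 of 36 between 5 and 10 Mb. In each of these 2 stretches 25% of genes had an unadjusted p below 0.05. That share was 32.3% within 5 Mb on the distal side and 4.28% off chromosome 9. The mice were sorted by their genotype at Gnb5. The comparison of KO and WT groups therefore cannot tell the deletion apart from any difference in the chromosome carried along with it. Single WT and HET libraries that stood apart from their group at some features are given below, and the cause was not tested.

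Snap91, a clathrin assembly protein of synaptic vesicles (chr9:86765923-86880654, 11.4 Mb from Gnb5), ran from 0.533 to 1.32 CPM in KO (median 0.793) and from 4.12 to 11.3 in WT (median 6.42). No KO library reached the lowest WT library. The difference was −3.03 (SE 0.24, adjusted p 3.19e-07 by edgeR). HET libraries ran from 3.08 to 4.93 (median 4.32), above every KO library and overlapping with WT. Of the 36 tested genes of vesicle coats and clathrin endocytosis, Snap91 was called and the other 35 were not, and the median of the list was 0.00 beside −0.01 over all genes.

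Rpl29, a protein of the large ribosomal subunit (chr9:106429454-106431568), ran from 0.641 to 1.37 CPM in KO (median 1.08) and from 4.67 to 8.39 in WT (median 7.53), without overlap. The difference was −2.80 (SE 0.28, adjusted p 9.15e-06 by edgeR). Rpl29 has processed copies on other chromosomes, and reads that align to several places were not counted, so its level is that of reads placed on it uniquely. It was the single called gene among 95 cytosolic ribosomal protein genes tested, whose median difference was 0.03. Rpl5 (−0.26, SE 0.09, adjusted p 0.643) and Rpsa, also on chromosome 9 (−0.82, SE 0.33, adjusted p 0.841), had the next smallest p.

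Fam81a (chr9:70088511-70142560, 5.16 Mb on the centromere side) ran from 19.4 to 24.7 CPM in KO (median 23.0) and from 5.25 to 10.8 in WT (median 9.37). HET libraries ranged from 14.5 to 22.5, between the other genotypes and reaching into the KO range. The difference was 1.40 (SE 0.16, adjusted p 3.56e-05 by edgeR), and HET against WT gave 1.12 (adjusted p 0.00731). Hemk1, which methylates release factors of translation (chr9:107327084-107338350), ran from 27.8 to 36.9 CPM in KO and from 9.87 to 19.7 in WT, a difference of 1.25 (SE 0.16, adjusted p 0.000320). Both genes separated the groups completely.

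Ephb1, a receptor tyrosine kinase for B-type ephrins (chr9:101922128-102354693), ran from 24.3 to 40.4 CPM in KO (median 33.0) and from 2.80 to 18.0 in WT (median 4.29). The groups did not overlap, but the WT libraries fell apart: WT replicate 1 had 18.0 and the other 5 had 2.80 to 4.68. The difference was 2.40 (SE 0.48, adjusted p 0.0316 by edgeR) with all libraries. The call was lost in 10 of the 12 fits without 1 KO or WT library, with adjusted p up to 0.112, and with robust empirical Bayes (adjusted p 0.130). Among HET libraries, replicates 2 and 4 had 3.33 and 2.95 CPM, and the other 4 had 17.7 to 23.5. Ephb1 was thus low in 5 WT and 2 HET libraries and intermediate in WT replicate 1 and the other 4 HET libraries. Every KO library lay above all of these.

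Tbx18, a T-box factor of the epicardium and of the head of the sinus node (chr9:87702800-87731260), ran from 2.33 to 2.91 CPM in KO (median 2.48) and from 3.34 to 4.47 in WT (median 4.06), without overlap. The difference was −0.66 (SE 0.12, adjusted p 0.0136 by edgeR). Drd2, the dopamine D2 receptor, which couples to Gαi and Gαo (chr9:49340627-49408177), ran from 2.31 to 4.76 CPM in KO (median 3.42) and from 1.45 to 2.28 in WT (median 1.97). Its difference of 0.85 (SE 0.17) had the largest adjusted p of the called genes, 0.0398. Of the 8 dopamine and catecholamine genes tested, Drd2 was called. Maob, a monoamine oxidase on the X chromosome, also had separate ranges, 51.3 to 59.0 CPM in KO and 59.2 to 70.1 in WT, but was not called (−0.27, SE 0.08, adjusted p 0.505).

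The other 12 called genes of chromosome 9 had smaller differences or low levels. Lower in KO were Hmgn3, a nucleosome-binding protein (−1.11), Parp3, an ADP-ribosyltransferase of DNA repair (−0.72), Abhd14b, a hydrolase (−0.75), Sh3bgrl2 (−0.67), Mrpl3 of the mitochondrial ribosome (−0.44), the lysosomal protease Ctsh (−0.63), the glutamine transporter Slc38a3 (−0.81), the long non-coding RNA Gm10635 (−2.01) and the antisense RNA Gm9917 (−0.99). Higher were Nprl2, a subunit of the GATOR1 brake on mTORC1 (0.48), the protein phosphatase Ppm1m (0.63) and the long non-coding RNA Gm28231 (1.43). Their SE lay between 0.08 and 0.30 and their adjusted p by edgeR between 0.000993 and 0.0299. The ranges of KO and WT overlapped for Gm28231, Ctsh and Slc38a3. Whether the counting used strand is not given in the sources used here, so reads on Gm9917 cannot be told apart from reads of a gene on the other strand.

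A further 19 chromosome 9 genes separated KO from WT completely without being called, 9 higher and 10 lower. The smallest adjusted p among them were those of Prss45, a serine protease (0.305 to 0.639 CPM in KO, 0 to 0.275 in WT, adjusted p 0.0537), Col6a5, a collagen VI chain (1.18 to 1.90 against 0.0899 to 0.892, adjusted p 0.0589), Cyb5r4, a cytochrome b5 reductase (20.3 to 25.9 against 28.6 to 52.5, adjusted p 0.0660) and Morf4l1, a chromatin protein (28.6 to 32.2 against 35.3 to 49.8, adjusted p 0.0660). The group included Nt5e, the ecto-nucleotidase that makes adenosine, at 15.4 to 23.3 CPM in KO and 11.6 to 14.6 in WT (0.57, SE 0.13, adjusted p 0.0704). Aldh1a2, the retinoic acid synthesis enzyme of the epicardium 4.01 Mb from Gnb5, had 3.51 to 4.58 in KO and 5.03 to 9.52 in WT (−0.65, SE 0.19, adjusted p 0.396). These genes were picked by their ranges, and no test of the group was made. With the called genes included, the ranges did not overlap for 4.28% of chromosome 9 genes and for 0.314% of genes elsewhere.

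**Figure D2:**
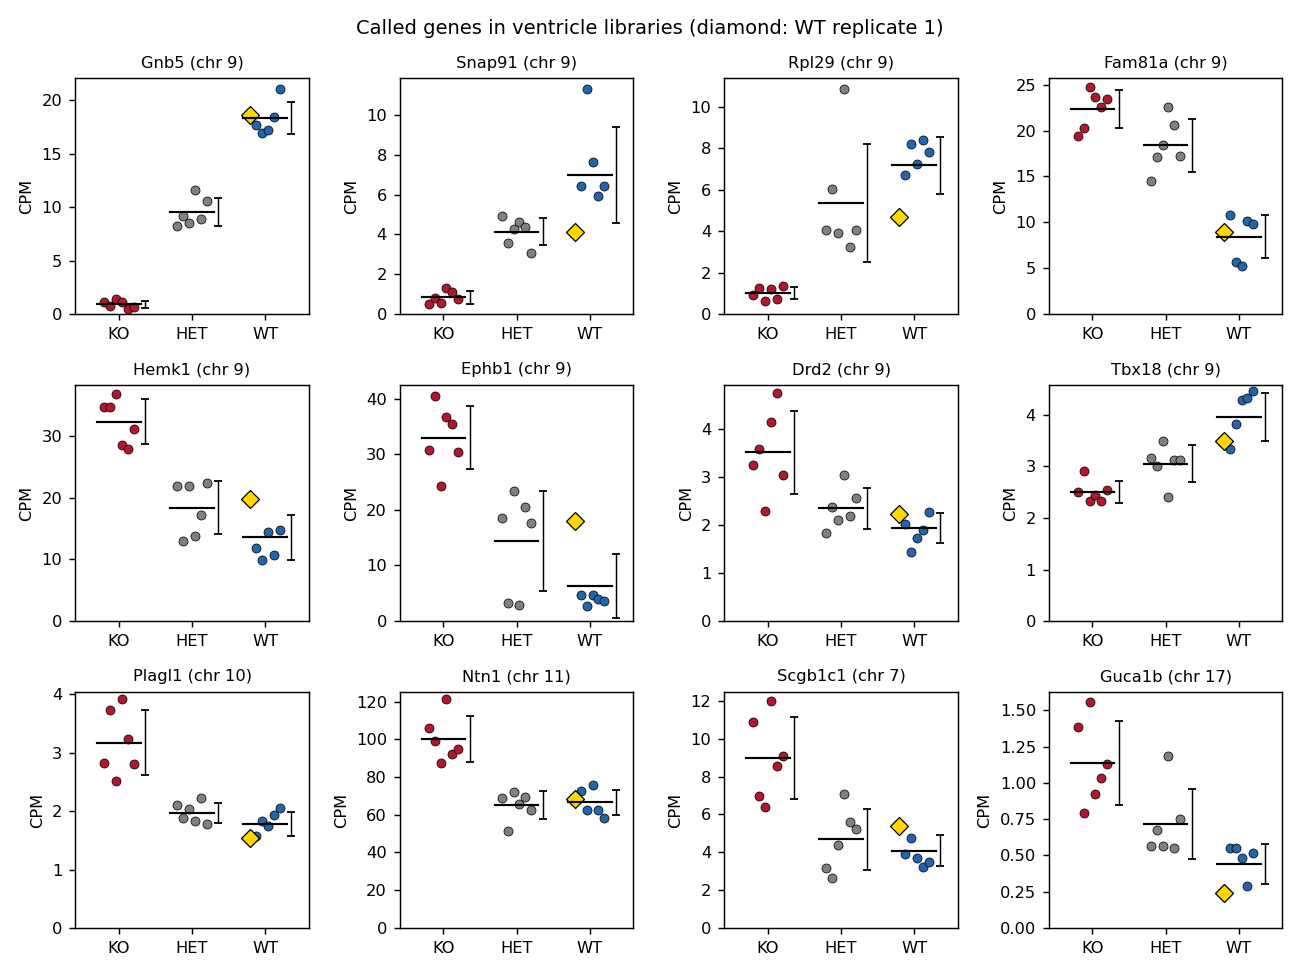
CPM of 12 called genes in each ventricle library of KO, HET and WT mice (points); horizontal lines are group means, the bars beside them the SD of 6 libraries, and the diamond is WT replicate 1. For Ephb1 the diamond stands at 18.0 CPM above the other WT libraries, while for Gnb5 it lies among them.

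Off chromosome 9, 8 genes were called, 7 higher and 1 lower in KO. With chromosome 9 genes left out before adjustment, 6 of the 8 stayed called, and Guca1b and Gm31520 did not. They were 4 processed pseudogenes and 4 protein-coding genes. After these values had been seen, each tested pseudogene was aligned to the protein-coding transcripts of GENCODE M21, and the nearest match of the 4 called pseudogenes was in each case a gene of chromosome 9. Processed pseudogenes arise by copying a messenger RNA into the genome and resemble the sequence of their parent. A stretch of 90 bases of each copy and its match is printed on the strand of the transcript, with differing bases in capitals. Each is the coding stretch without gaps that held the most differences, from 3 for Gm5561 and Rpl29 to 12 for Gm31520 and Sc5d. Other coding stretches of 90 bases without gaps therefore differ at no more bases than the one printed. Stretches with gaps or outside the coding sequence were not compared. The whole alignments had 8 mismatches over 480 bases for Gm5561 and 21 over 1716 for Gm7049. They had 9 over 564 for Oaz2-ps and 93 over 1169 for Gm31520. Besides the mismatches they held 0 gap bases for Gm5561, 6 for Gm7049, 27 for Oaz2-ps and 40 for Gm31520. The stretches of Rpl29 and Sc5d cross an exon junction, so their genome coordinates span an intron.
Gm7049 (chr13:62813567-62813656, plus strand): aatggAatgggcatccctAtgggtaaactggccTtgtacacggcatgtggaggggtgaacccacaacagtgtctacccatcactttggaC
Me1 (chr9:86650886-86650975, minus strand): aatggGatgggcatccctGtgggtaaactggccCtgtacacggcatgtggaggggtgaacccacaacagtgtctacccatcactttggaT
Gm5561 (chr1:179520726-179520815, minus strand): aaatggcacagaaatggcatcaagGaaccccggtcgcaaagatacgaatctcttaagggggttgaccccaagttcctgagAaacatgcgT
Rpl29 (chr9:106430313-106431098, plus strand): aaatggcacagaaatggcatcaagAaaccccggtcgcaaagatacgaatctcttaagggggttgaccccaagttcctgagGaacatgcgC
Oaz2-ps (chr3:135526233-135526322, minus strand): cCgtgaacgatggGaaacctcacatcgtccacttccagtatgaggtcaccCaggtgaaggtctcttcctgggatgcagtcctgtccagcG
Oaz2 (chr9:65687829-65687918, plus strand): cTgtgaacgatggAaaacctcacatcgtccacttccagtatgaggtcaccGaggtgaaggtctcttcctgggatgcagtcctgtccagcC
Gm31520 (chr6:66283802-66283891, plus strand): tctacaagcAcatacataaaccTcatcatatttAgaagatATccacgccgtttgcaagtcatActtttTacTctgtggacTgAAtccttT
Sc5d (chr9:42255716-42256114, minus strand): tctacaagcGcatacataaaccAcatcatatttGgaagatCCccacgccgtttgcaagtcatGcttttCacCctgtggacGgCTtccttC

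Gm5561, 98.3% identical to Rpl29 over 480 bases, ran from 0 to 0.0588 CPM in KO and from 0.658 to 2.64 in WT. Oaz2-ps, 93.6% identical to Oaz2, an antizyme that limits polyamine synthesis, ran from 0.894 to 1.39 CPM in KO and from 0 to 0.206 in WT, and HET libraries had 0.319 to 0.733. Gm7049, 98.4% identical to Me1, the cytosolic malic enzyme, ran from 0.632 to 1.07 in KO and from 0.0872 to 0.275 in WT. Each of these copies separated the groups completely, with adjusted p by edgeR of 2.93e-05, 7.50e-05 and 2.93e-05. Fold changes are not given for copies whose KO or WT libraries lay near 0, because they depend on the prior count.

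Gm31520, 88.6% identical to Sc5d, an enzyme of the last steps of cholesterol synthesis, ran from 1.07 to 2.62 CPM in KO and from 0.349 to 1.03 in WT, a difference of 1.49 (SE 0.29, adjusted p 0.0254 by edgeR). Of the matching genes, Rpl29 was called lower. The difference was −0.11 (SE 0.08) for Me1, 0.11 (SE 0.09) for Oaz2 and −0.19 (SE 0.10) for Sc5d, each with an adjusted p of 1.00. Gm5561 and Rpl29 were thus both lower in KO, and the other 3 copies were higher beside a match that did not pass the test. Whether reads of a match were assigned to its copy was not tested, and the levels of the copies are given with that limit.

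Of the 294 pseudogenes tested off chromosome 9, 21 (7.14%) had their nearest coding match on chromosome 9, and 4 of these were called and 8 (38.1%) had an unadjusted p below 0.05. Another 262 had their nearest match elsewhere, and 0 of these were called by edgeR and 23 (8.78%) had an unadjusted p below 0.05. The remaining 11 had no match, with 0 called and 1 at an unadjusted p below 0.05. The 4 called copies are those that prompted the alignment, so counting them among the 21 adds no separate support. Besides them, Gm11868, Gm8210, Gm9790 and Gm4045 of the 21 had an unadjusted p below 0.05 and were not called. Among the 21, Gm11868, 98.0% identical to Cyb5r4, ran from 5.53 to 8.18 CPM in KO and from 0 to 4.15 in WT (adjusted p 0.0673 by edgeR), and Gm8210, 99.4% identical to Rpl29, ran from 0.977 to 2.18 in KO and from 0 to 0.995 in WT (adjusted p 0.328). In both, 1 WT library carried the upper end of the WT range.

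That library was WT replicate 1. The features in which it was then examined were chosen after these values had been seen. Gm11868 had 4.15 CPM in WT replicate 1 and at most 0.0899 in the other 5 WT libraries, and Gm8210 had 0.995 there and 0 in the others. Hemk1 had 19.7 against 9.87 to 14.7, Gm28231 had 1.82 against 0.582 to 0.705, and Rpl29 had 4.67 against 6.72 to 8.39. In each of these the value of WT replicate 1 lay on the KO side of the other WT libraries. This did not hold everywhere: Cyb5r4 had 30.5 CPM there, within the 28.6 to 52.5 of the others, and the Rpl29 copy Gm5561 had 2.64, the highest WT value and the farthest from KO. Its Gnb5 level, 18.7 CPM, lay within the 16.9 to 21.02 of the others.

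The atria of the same mouse, labelled with the same mouse number, were compared at these features. Gm11868 had 4.88 CPM in atria of WT replicate 1 and 0.0314 to 0.156 in the other 5 WT atria. Oaz2-ps had 0.521 against 0 to 0.0364, Hemk1 15.7 against 8.87 to 11.3, Gm28231 0.616 against 0.183 to 0.329, and Rpl29 4.57 against 8.53 to 10.1. Gnb5 in that atrial library was 26.9 CPM, within the WT range of 26.2 to 32.8. Cyb5r4, within the WT range in ventricles, had 41.8 in that atrial library against 48.6 to 57.6. The listed features, chosen for where this mouse stood in them, are a description and were not tested.

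**Figure D3:**
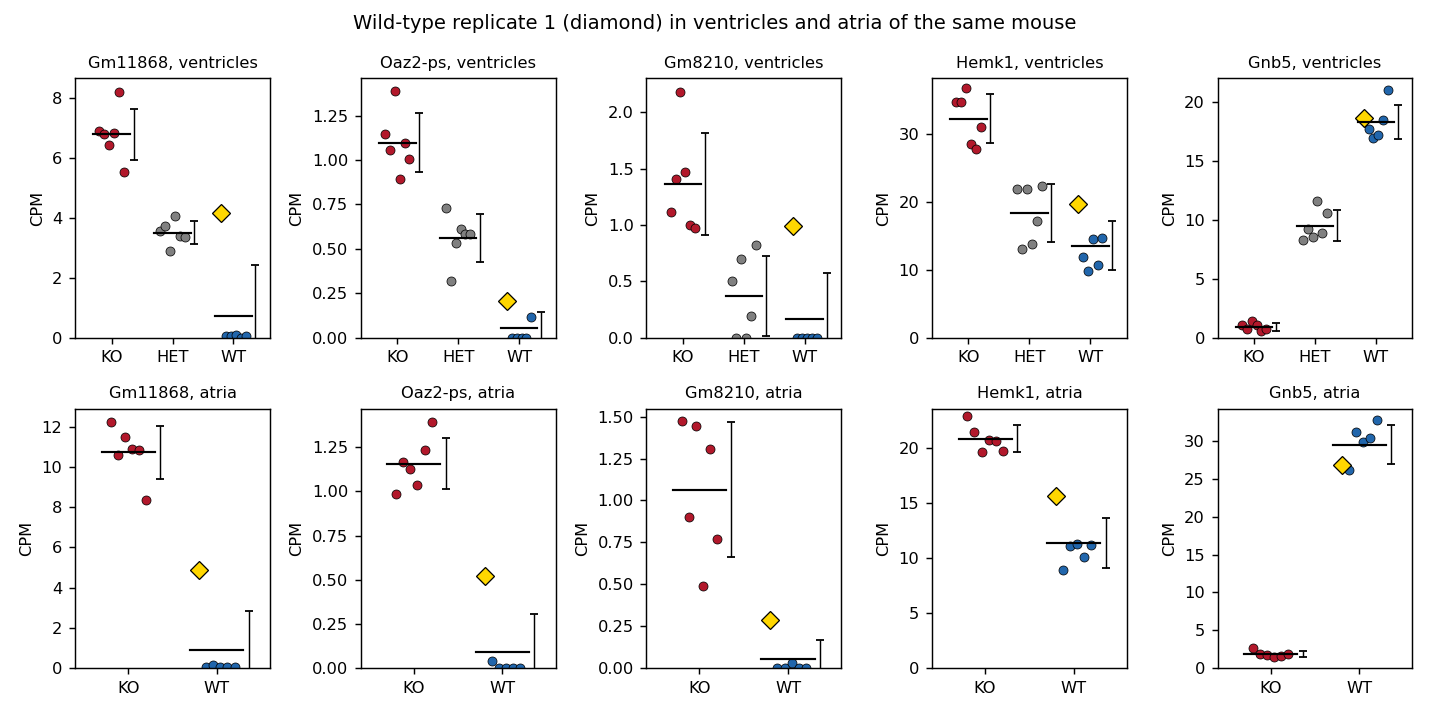
CPM of 3 pseudogenes, Hemk1 and Gnb5 in each library of ventricles (top) and atria (bottom); points are libraries, lines are group means, bars are SD of 6 libraries and the diamond is WT replicate 1. The diamond lies above the other WT libraries for Gm11868 in both tissues (4.15 and 4.88 CPM) and within them for Gnb5.

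The 4 protein-coding genes called off chromosome 9 were all higher in KO. Plagl1, an imprinted zinc finger transcription factor (chr10:13060504-13131694), ran from 2.52 to 3.92 CPM in KO (median 3.03) and from 1.54 to 2.05 in WT (median 1.78). Ntn1, which encodes the secreted guidance cue netrin-1 (chr11:68209364-68400823), ran from 87.6 to 122 CPM in KO (median 97.0) and from 58.0 to 75.8 in WT (median 65.5). Neither gene's groups overlapped, and their HET libraries lay near WT, with medians of 1.95 and 67.4. The differences were 0.83 (SE 0.14, adjusted p 0.00591 by edgeR) for Plagl1 and 0.59 (SE 0.10, adjusted p 0.00591) for Ntn1, and both remained called in each fit without 1 KO or WT library, with adjusted p up to 0.0213 and 0.0238.

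Scgb1c1, a secretoglobin (chr7:140845547-140846769), ran from 6.39 to 11.997 CPM in KO (median 8.82) and from 3.24 to 5.39 in WT (median 3.82), a difference of 1.14 (SE 0.21, adjusted p 0.0161 by edgeR). Guca1b, known as an activator of photoreceptor guanylate cyclase (chr17:47385393-47392967), ran from 0.793 to 1.56 CPM in KO (median 1.08) and from 0.240 to 0.552 in WT (median 0.498), a difference of 1.36 (SE 0.26, adjusted p 0.0201). Both separated the groups, but their adjusted p reached 0.0619 and 0.0730 when 1 library was left out. Of the 35 imprinted genes tested, Plagl1 alone was called. Mest (0.41, SE 0.15) and H19 (0.42, SE 0.18) had positive and Snrpn (−0.34, SE 0.11) a negative estimate, each with an adjusted p above 0.6.

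Next in order off chromosome 9, by unadjusted p among uncalled genes whose ranges did not overlap, came 10 genes, 8 higher and 2 lower in KO. They were Cideb, a lipid droplet protein (0.87, SE 0.18, adjusted p 0.0532 by edgeR), Pgap2 (0.47, SE 0.10) and Pigf (0.70, SE 0.19), both of glycosylphosphatidylinositol anchor synthesis, the copy Gm11868, spermine synthase Sms (−0.37, SE 0.09), the long non-coding RNAs Gm8075 (1.10, SE 0.27) and 2810029C07Rik (0.72, SE 0.19), Lrp2bp (−1.05, SE 0.27) and the cardiac muscle genes Lrrc10 and Myom2. DESeq2 called Cideb, Pgap2, Sms, Gm8075, Lrp2bp and Lrrc10. The 10 were picked by their ranges, which did not overlap for 0.314% of all genes off chromosome 9.

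Among the Gβ subunits, Gnb5 was the member called. Gnb3, the nearest to a call of the other 4, ran from 10.02 to 14.02 CPM in KO (median 11.3) and from 3.34 to 10.09 in WT (median 5.65), with the lowest KO library just under the highest WT library. The difference was 0.92 (SE 0.25, adjusted p 0.293 by edgeR and 0.0537 by DESeq2). Gnb1 (0.02, SE 0.06), Gnb2 (0.06, SE 0.18) and Gnb4 (0.08, SE 0.09) gave estimates near 0. Per kilobase of exon, Gnb1 and Gnb2 had the highest levels of the family.

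Of the R7-RGS proteins and their anchors, 5 of 8 were tested and 0 were called by edgeR or DESeq2, with 2 at an unadjusted p below 0.05 and a median difference of 0.31. Rgs7 ran from 1.03 to 3.33 CPM in KO (median 2.16) and from 0.824 to 1.76 in WT (median 1.30), and the difference was 0.77 (SE 0.23, adjusted p 0.431). Rgs6, the R7 member with the highest level per kilobase, ran from 16.1 to 24.8 in KO (median 18.9) and from 11.6 to 20.4 in WT (median 14.6), a difference of 0.31 (SE 0.13, adjusted p 0.877). The ranges overlapped in both. Rgs11 (0.59, SE 0.39), the membrane anchor Rgs7bp (−0.17, SE 0.21) and the anchor receptor Gpr158 (0.09, SE 0.47) had an adjusted p of 1.00, and Rgs9, Rgs9bp and Gpr179 had at most 11 counts in any KO or WT library and were not tested.

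The other G-protein genes showed no called member. Of the 13 other RGS genes, 5 had positive and 8 negative estimates (median −0.12), and Rgs12 separated the groups at 16.3 to 22.1 CPM in KO and 10.5 to 16.3 in WT (0.43, SE 0.13, adjusted p 0.477 by edgeR). Of the 13 Gα genes, 4 were positive and 9 negative (median −0.06), with Gnao1, the Gαo gene, at −0.35 (SE 0.12, adjusted p 0.723). Of the 8 Gγ genes, 4 were positive and 4 negative (median 0.01), with Gng2 at −0.29 (SE 0.13, adjusted p 0.955) and at −0.17 without WT replicate 3.

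On the cholinergic side (median 0.01, or 0.08 off chromosome 9), 0 of 6 tested genes were called by edgeR or DESeq2 and 0 had an unadjusted p below 0.05. Chrm2, the M2 muscarinic receptor, ran from 119 to 179 CPM in KO (median 163) and from 144 to 181 in WT (median 160.0), a difference of −0.05 (SE 0.16). The GIRK channel genes Kcnj3 (−0.13, SE 0.13) and Kcnj5, which lies on chromosome 9 (−0.21, SE 0.12), and Ache (0.12, SE 0.15), Bche (0.08, SE 0.36) and Chrm3 (0.14, SE 0.32) likewise had an adjusted p of 1.00 by edgeR. Chrm1, Chrm4, Chrm5, Kcnj6 and Kcnj9 had at most 2 counts in a library.

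The HCN channels carry the pacemaker current, and their estimates had both signs. Hcn4, on chromosome 9, ran from 6.35 to 8.02 CPM in KO (median 7.10) and from 6.94 to 13.99 in WT (median 9.74), and Hcn2 ran from 11.9 to 25.6 in KO (median 16.9) and from 8.52 to 15.96 in WT (median 12.8). Their differences of −0.53 (SE 0.18, adjusted p 0.670 by edgeR) and 0.46 (SE 0.19, adjusted p 0.925) were not called, and both pairs of ranges overlapped. Over the 3 tested members of the list the median was −0.03, and Hcn3 was not tested.

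In the cyclic AMP pathway, which Gαs raises and Gαi lowers, 13 of 18 adenylyl cyclase and protein kinase A genes had positive estimates (median 0.02). The mean log2 level of this list relative to the WT mean ran from 0.04 to 0.13 in KO and from −0.07 to 0.03 in WT. Of the 49 lists looked at, the groups did not overlap in this one and in the Gβ subunits, which hold the deleted gene itself. The gap was narrow, and it was not tested. HET libraries ran from −0.48 to 0.07, and HET replicate 1, at 0.07, lay inside the KO range. Adcy1, a calcium-stimulated cyclase, ran from 2.91 to 7.07 CPM in KO (median 4.31), from 1.47 to 2.67 in HET (median 2.04) and from 2.01 to 3.26 in WT (median 2.31), so every KO library was above every HET library and overlapped with WT at its lower end. The difference of 0.87 (SE 0.19) was not called by edgeR (adjusted p 0.0857) and was called by DESeq2 (adjusted p 0.00608). The main cardiac cyclase Adcy5 (0.29, SE 0.12) and Adcy8 (−0.45, SE 0.20) and Adcy7 (−0.22, SE 0.10) had an unadjusted p below 0.05 and went different ways. Among 19 phosphodiesterases 12 were positive (median 0.09), and Pde1c separated the groups at 63.2 to 73.7 CPM in KO and 34.0 to 61.5 in WT (0.48, SE 0.16, adjusted p 0.641). Of the 13 adrenergic receptor, GRK and arrestin genes 4 were positive and 9 negative (median −0.02), with the receptor kinase Grk5 at −0.27 (SE 0.11, adjusted p 0.895).

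In the sarcomere, 19 thick filament genes divided into 10 positive and 9 negative estimates (median 0.02, or 0.04 off chromosome 9), and 28 thin filament and Z-disc genes into 10 and 18 (median −0.08). Myom2, which crosslinks myosin in the M-band, ran from 1435 to 1726 CPM in KO (median 1579) and from 898 to 1374 in WT (median 1077), without overlap (0.55, SE 0.15, adjusted p 0.264 by edgeR). Lrrc10, a cardiac Z-disc protein, ran from 79.4 to 99.8 in KO (median 89.7) and from 47.4 to 79.1 in WT (median 71.5), also without overlap (0.40, SE 0.10, adjusted p 0.214 by edgeR and 0.0497 by DESeq2). Both had every KO library above every WT library and were not called by edgeR. Myh6, the main adult mouse myosin heavy chain, had a difference of 0.08 (SE 0.12).

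Calcium handling genes had 9 positive and 22 negative estimates among 31 (median −0.05), and calcium channel genes 5 and 11 among 16 (median −0.12). Ryr1, the ryanodine receptor of skeletal muscle, ran from 0.118 to 0.432 CPM in KO (median 0.304) and from 0.420 to 0.922 in WT (median 0.819), with a small overlap. Its difference of −1.27 (SE 0.29) had an adjusted p of 0.0967 by edgeR and 0.0207 by DESeq2. Atp2a1, the calcium pump of fast skeletal muscle, was at −0.88 (SE 0.31, adjusted p 0.742), and Atp2a2, the cardiac pump, at −0.06 (SE 0.10). Of 9 tested skeletal muscle markers, Atp2a1 among them, 8 were negative (median −0.40), with Tnni2 at −1.01 (SE 0.29) and Mybpc2 at −0.40 (SE 0.13), none of them called. The mean log2 level of these markers relative to the WT mean ran from −0.94 to −0.10 in KO and from −0.22 to 0.14 in WT, Myh4 had 0 counts in every library, and Myh1 and Myh2 had at most 3 and 4. The part of skeletal muscle RNA in the Ryr1 difference was not tested.

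Among sodium channel genes, 5 of 10 were positive and 5 negative, and 5 lie on chromosome 9. The median was −0.06 over the 10 and −0.27 off chromosome 9. Scn10a, which encodes Nav1.8 (chr9:119608456-119719322, 44.3 Mb from Gnb5), ran from 2.93 to 5.47 CPM in KO (median 4.67) and from 1.38 to 3.49 in WT (median 2.76), a difference of 0.86 (SE 0.21, adjusted p 0.160 by edgeR and 0.0173 by DESeq2). The auxiliary subunit Scn4b, also on chromosome 9, was at −0.77 (SE 0.32, adjusted p 0.925). Of 38 potassium channel genes of repolarization 21 were positive and 17 negative (median 0.04), and 0 were called by edgeR or DESeq2. The 6 with an unadjusted p below 0.05 included Kcnip2, a subunit of the transient outward channel (0.30, SE 0.11), Kcne1 (0.55, SE 0.21), Kcnj4 (0.99, SE 0.40) and Kcna4 (0.59, SE 0.26), which were positive, and Kcnk1 (−1.19, SE 0.53), which was negative.

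The 7 connexin genes tested, which form gap junctions, were all positive in estimate (median 0.18), but 0 were called by edgeR or DESeq2 and 0 had an unadjusted p below 0.05. Gja1, the main ventricular connexin, ran from 404 to 545 CPM in KO and from 371 to 489 in WT (0.12, SE 0.10), and Gja5 of the conduction system from 6.20 to 7.14 and from 4.80 to 6.95 (0.18, SE 0.13). The mean log2 level of the list relative to the WT mean ran from 0.08 to 0.47 in KO and from −0.36 to 0.18 in WT, so the groups overlapped. Of 33 transcription factors of chambers and conduction tissue, 26 were positive and 7 negative (median 0.09), and the one called, Tbx18, was among the negative ones. The positive side held Gata5 (0.87, SE 0.29), Hey1 (0.32, SE 0.12), Irx5 (0.45, SE 0.17) and Irx3 (0.51, SE 0.21), with an unadjusted p below 0.05 and adjusted p from 0.619 to 0.872 by edgeR. The epicardial and mesothelial markers had 8 positive and 3 negative among 11. The 2 that separated the groups, Tbx18 and Aldh1a2, are among the 3 of these markers on chromosome 9. Such separation held for 4.28% of chromosome 9 genes and 0.538% of all genes.

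Of 21 genes of natriuretic peptides and the renin-angiotensin system, 13 were positive and 8 negative (median 0.02). Nppa, atrial natriuretic peptide, ran from 70.9 to 177 CPM in KO (median 126) and from 48.1 to 119 in WT (median 85.3), and the difference of 0.58 (SE 0.24, adjusted p 0.893 by edgeR) was not called, with overlapping ranges. Edn3, endothelin 3, separated the groups at 2.60 to 3.86 CPM in KO and 4.16 to 9.28 in WT (−0.82, SE 0.25, adjusted p 0.492). Atrial cardiomyocyte markers, Nppa included, were 4 positive and 6 negative (median −0.23, or −0.13 off chromosome 9). Without WT replicate 5 the median was −0.08.

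**Figure D4:**
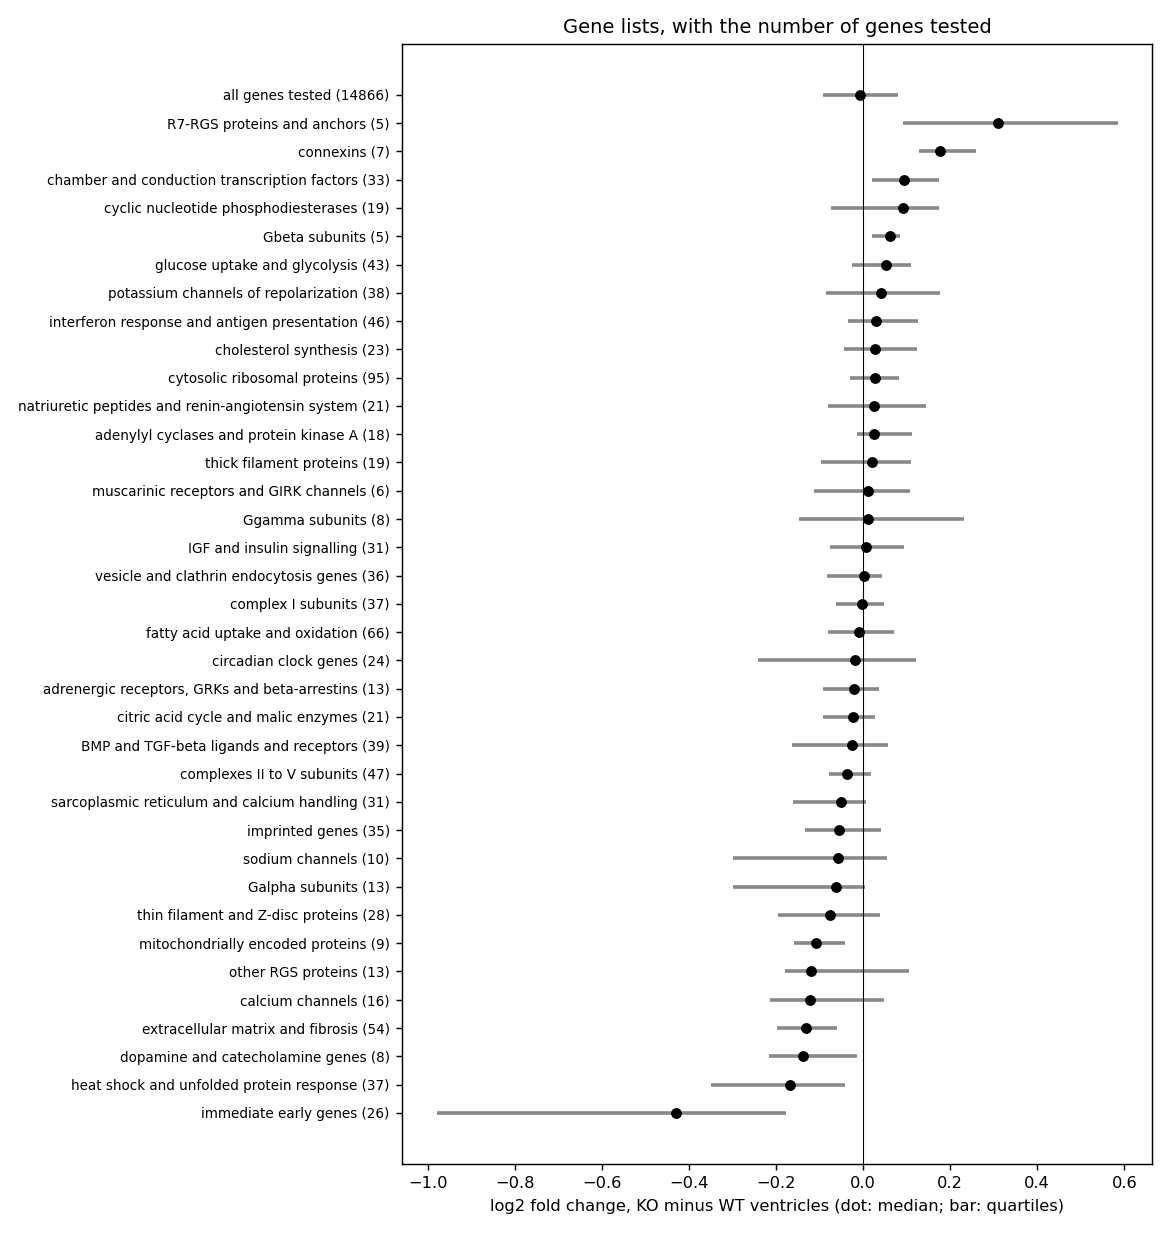
Median (dot) and quartiles (bar) of the log2 fold change (KO minus WT ventricles) over the tested genes of each list, with the number of genes in brackets and all genes tested at the top. Cell type markers and the HCN list are not drawn. Immediate early genes stand farthest to the left, with a median of −0.43, and R7-RGS genes farthest to the right, with 0.31.

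Among the lists other than cell type markers, the lowest median was that of immediate early genes, which cells transcribe within minutes of a stimulus. Of 26 tested, 25 had negative estimates, 11 of them at an unadjusted p below 0.05, with a median of −0.43 beside −0.01 over all genes, and 0 were called by edgeR or DESeq2. Nr4a1, a nuclear receptor, ran from 4.24 to 16.1 CPM in KO (median 9.25) and from 4.16 to 92.2 in WT (median 40.5), a difference of −2.13 (SE 0.58, adjusted p 0.279 by edgeR). Atf3 ran from 2.03 to 4.46 in KO (median 3.04) and from 3.10 to 23.8 in WT (median 9.26), at −1.79 (SE 0.53, adjusted p 0.403). Both had widely spread WT libraries and a narrow KO group.

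Fos (−1.89, SE 0.69), Nr4a2 (−1.59, SE 0.58) and Btg2 (−0.95, SE 0.32) came next and were not called. Without WT replicate 1 the estimate of Fos was −0.93, and without WT replicate 5 that of Nr4a2 was −0.95. The mean log2 level of the list relative to the WT mean ran from −0.79 to −0.23 in KO and from −0.91 to 0.48 in WT. WT replicate 6, at −0.91, was the lowest of the 12 libraries, and the other 5 WT libraries, from −0.07 to 0.48, lay above every KO library. HET libraries ran from −0.64 to 0.55. WT replicate 6 and KO replicate 3, the lowest KO library of the list, are the same 2 libraries that had the smallest mitochondrial shares, and without both the median was −0.50. The part of RNA quality in these levels was not tested.

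Heat shock and unfolded protein response genes were negative in 34 of 37 (median −0.17), 7 of them at an unadjusted p below 0.05. Hspa1l, a testis-type Hsp70 next to Hspa1a, ran from 5.15 to 8.74 CPM in KO (median 6.34) and from 8.17 to 19.8 in WT (median 12.01), at −0.87 (SE 0.21, adjusted p 0.123 by edgeR and 0.00969 by DESeq2). Chac1, a glutathione-degrading target of the stress response, ran from 0.421 to 1.53 in KO (median 0.687) and from 0.823 to 3.15 in WT (median 1.91), at −1.27 (SE 0.35, adjusted p 0.293 by edgeR and 0.0497 by DESeq2). The inducible Hsp70 genes Hspa1a (−3.01, SE 0.92) and Hspa1b (−2.80, SE 0.99) had WT libraries as high as 73.4 and 63.7 CPM beside WT medians of 3.58 and 1.82. Without WT replicate 5 their estimates were −1.90 and −1.61, and since they are near-identical their reads can be split between them. The list ran from −0.49 to −0.05 in KO and from −0.39 to 0.36 in WT, so the groups overlapped. HET libraries ran from −0.45 to −0.19 apart from HET replicate 4, at 0.23, so low levels were not particular to KO.

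**Figure D5:**
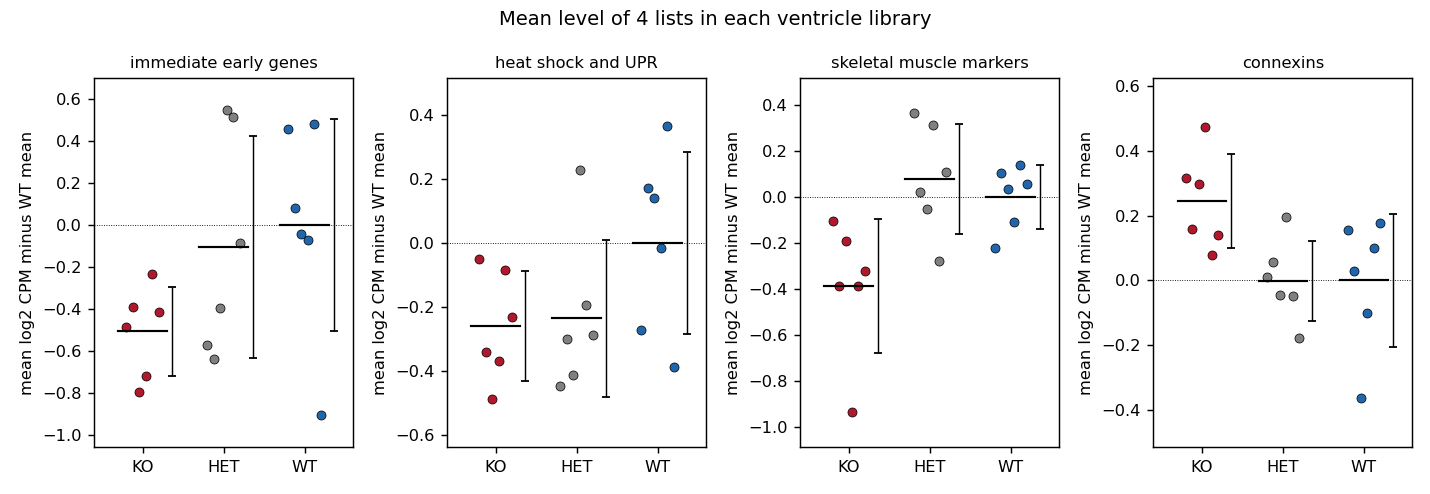
Mean log2 CPM of the tested genes of 4 lists in each ventricle library, minus the mean of the WT libraries; points are libraries, lines are group means and the bars beside them are SD of 6. Among immediate early genes 1 WT library, at −0.91, lies below the KO libraries, which run from −0.79 to −0.23.

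Genes of extracellular matrix and fibrosis had 46 negative estimates among 54 (median −0.13), and 3 had an unadjusted p below 0.05: Thbs1 (−0.56, SE 0.21), Spp1 (−0.78, SE 0.33) and Cilp (−0.41, SE 0.19). None was called. The mean log2 level of this list relative to the WT mean ran from −0.25 to −0.04 in KO and from −0.11 to 0.15 in WT, so the groups overlapped. HET libraries ran from −0.31 to −0.02, so low levels were not particular to KO. Of the fibroblast markers 9 of 10 were negative, with a median of −0.13, and their mean log2 level relative to the WT mean ran from −0.25 to 0.04 in KO and from −0.08 to 0.13 in WT. In bulk tissue, fewer cells of a type and less RNA per cell cannot be told apart. Of 39 BMP and TGF-β ligand and receptor genes 15 were positive and 24 negative (median −0.03), with Bmp7 (0.56, SE 0.21), Tgfb3 (−0.24, SE 0.10), Mstn (−0.91, SE 0.39) and Inhba (−0.56, SE 0.25) at an unadjusted p below 0.05. Inhba was at −0.29 without WT replicate 3.

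Energy metabolism held no gene called by edgeR or DESeq2. Fatty acid uptake and oxidation had 33 positive and 33 negative estimates (median −0.01), glucose uptake and glycolysis 28 and 15 (median 0.05), the citric acid cycle 9 and 12 (median −0.02), complex I 17 and 20 (median 0.00), and complexes II to V 15 and 32 (median −0.04). Hexokinase 1 (Hk1) ran from 223 to 299 CPM in KO (median 249) and from 180 to 232 in WT (median 194), a difference of 0.33 (SE 0.11, adjusted p 0.641 by edgeR). Of 9 mitochondrially encoded genes 8 were negative (median −0.11). Cholesterol synthesis had 14 and 9 (median 0.03), interferon response and antigen presentation 29 and 17 (median 0.03), clock genes 12 and 12 (median −0.02, or 0.04 off chromosome 9), and IGF and insulin signalling 18 and 13 (median 0.01). In the order named, these lists of metabolism and signalling held 66, 43, 21, 37, 47, 9, 23, 46, 24 and 31 tested genes. In them 0 genes were called by edgeR or DESeq2. Over all genes the share with an unadjusted p below 0.05 was 4.78%, and 11 genes of these lists had such a p. The 11 included Acaa1b of peroxisomal oxidation (1.54, SE 0.52), whose reads can be split with Acaa1a. Also included was mt-Atp6 (−1.85, SE 0.58), which has copies in the nuclear genome and was at −1.09 without WT replicate 1.

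The cell type markers showed no called member besides Tbx18. Ventricular cardiomyocyte markers were 7 positive and 3 negative (median 0.05), endothelial 5 and 7 (median −0.04), pericyte and smooth muscle 7 and 4 (median 0.10), macrophage and monocyte 5 and 8 (median −0.10), adipocyte 1 and 6 (median −0.09), and neuron and Schwann cell 3 and 5 (median −0.06). Lymphocyte markers were positive in 7 of 7 (median 0.17) and erythroid markers negative in 7 of 7 (median −0.49), with 0 in either list at an unadjusted p below 0.05. The mean log2 level of the erythroid list relative to the WT mean ran from −1.33 to 0.52 in KO and from −1.04 to 1.40 in WT, a spread wider than the difference, and its median was 0.01 without WT replicate 5.

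In the atria of the same 12 mice, 20 of 15726 genes were called (0.127%) when KO and WT were fitted alone. Of the 27 genes called in ventricles besides Gnb5, 25 had the same sign in atria and 9 were also called there. The 2 of these off chromosome 9 were Gm5561 and Guca1b, whose atrial difference was 1.56 (SE 0.22, adjusted p 0.00563 by edgeR). Plagl1 was at 0.45 (SE 0.13, adjusted p 0.355) and Ntn1 at 0.05 (SE 0.10, adjusted p 0.962) in atria, Tbx18 at 0.19 (SE 0.12) and Drd2 at −0.05 (SE 0.28). For none of these 4 did the difference between ventricles and atria pass the test (adjusted p 0.930, 0.635, 0.184 and 0.810 for the interaction, with each mouse as a block).

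Ephb1 was the 1 gene of 16076 tested (0.00622%) whose KO effect differed between the tissues, by 2.21 on the log2 scale (SE 0.32, adjusted p 0.0377 by edgeR). In the fits without 1 mouse, 0 genes passed this test without KO replicate 1, 2, 4, 5 or 6 or WT replicate 4 or 6. In atria it ran from 2.499 to 4.63 CPM in KO and from 1.64 to 3.20 in WT, and its difference there was 0.45 (SE 0.19, adjusted p 0.581). WT replicate 1, the high WT library in ventricles, had 3.10 CPM in atria, inside the range of the other WT atria. Fam81a had a larger estimate in atria, 2.59 (SE 0.31, adjusted p 0.00132) against 1.40 in ventricles, but this difference between tissues did not pass the test (adjusted p 0.144).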

How the data were processed

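Per the labels and the study's methods, RNA of whole ventricles was sequenced as single-end reads from stranded total RNA libraries. The authors trimmed reads with cutadapt 1.8, removed ribosomal reads, aligned to GRCm38 with STAR 2.5.3a and deposited raw read counts per Ensembl gene from HTSeq 0.9.1. The strand setting of the counting is not given in the sources used here, and reads aligning to several places were not assigned to genes. Of 53715 genes, 53620 matched GENCODE release 21 of the mouse (M21).

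Genes passing filterByExpr (minimum count 10) were fitted in edgeR 4.0.16 (R 4.3.3, limma 3.58.1) by quasi-likelihood over the 18 ventricle libraries with TMM factors and genotype as the only term. The SE is the log2 fold change over the square root of F. Benjamini-Hochberg adjustment ran over all 14866 genes tested. DESeq2 1.42.0, a surrogate variable (sva 3.50.0) and other alternatives are given below. The interaction with tissue was fitted over KO and WT libraries with mouse as a block. Pseudogenes were aligned with blastn 2.17.0. Each label names 1 mouse per library, so replicates are separate animals.

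The members and gene lists were chosen with earlier results of these data known. Named genes are Gnb5, every called gene, the next 10 off chromosome 9 whose groups did not overlap, the members of the Gβ, R7-RGS, muscarinic and GIRK, and HCN lists, and members of the other lists taken from those called, those of smallest p and those of highest level per length. Some list members are not reported here. Replicate numbers did not pair the samples. Heterozygous and knockout contrasts share the WT libraries.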

Additional observations from a re-analysis of the deposited data

Results flagged for a closer look

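Among 160 groups of 6 libraries examined, 13 had a library whose gap to its neighbour, as a share of the range of the group, passed Dixon's limit for 6 values. Chance alone flags about 1 in 20 groups. WT replicate 1 was the highest WT library for Ephb1 (share 0.725) and for Gm28231 (0.836) and the lowest for Parp3 (0.636).

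WT replicate 3 was the lowest WT library in the mean level of adenylyl cyclases and protein kinase A (0.663), of sodium channels (0.698) and of citric acid cycle and malic enzymes (0.75). KO replicate 3 was the lowest KO library for HCN channels (0.659), for chamber and conduction transcription factors (0.639) and for macrophage and monocyte markers (0.661). KO replicate 4 was lowest for skeletal muscle markers (0.657), and WT replicate 5 highest for neuron and Schwann cell markers (0.636). The percentage of reads outside genes was highest in KO replicate 3 (0.72) and in WT replicate 6 (0.712) of their groups.

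The KO effect on Ephb1 differed between ventricles and atria by 2.21 on the log2 scale, tested as an interaction. In 7 of the 12 fits without 1 mouse, 0 genes passed that test.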

How the results depend on the processing

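The difference in Gnb5 was called under every alternative run. The 28 genes called became 63 with DESeq2, 45 with 1 surrogate variable, 6 of 14024 when chromosome 9 genes were left out before adjustment, and 17 (without WT replicate 5) to 41 (without WT replicate 1) when 1 library was left out, and 42 without HET replicate 4. The 8 off chromosome 9 became 27 with DESeq2 and 6 when chromosome 9 genes were left out before adjustment. They became 5 where 10 counts were asked of every library, 13 with KO and WT libraries alone, and 5 to 14 with 1 library left out. The 6 called genes of the lists became 12 with DESeq2, 1 without chromosome 9, and 4 to 7 with 1 library left out. The 1 gene whose KO effect differed between tissues became 0 to 2 with 1 mouse left out. With the replicate block 23 genes were called, 20 of them among the 28. Same-numbered KO and WT libraries had a mean correlation of −0.11, and 1 of 6 matched its own number best.

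Over the 27 called genes besides Gnb5, 527 of 625 values stayed called in the same direction, 98 were no longer called and 0 changed sign. Some estimates near 0 changed sign. In fits without 1 library, Bche ran from −0.062 to 0.31, Chrm2 from −0.10 to 0.014, Chrm3 from −0.062 to 0.31, Gnb2 from −0.025 to 0.14 and Gpr158 from −0.34 to 0.29. Without KO replicate 3 and WT replicate 6, Gpr158 was at 0.35. The causes were not tested. Of 1176 list medians, 1172 moved by less than the spread between replicates. Genes that failed the filter on low counts were not tested at this depth.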
